A study of Mus musculus with 8 samples.

Results

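The 10 genes described here are those of the immunoproteasome and of the loading of peptides onto MHC class I molecules, in RNA-seq libraries of mouse pancreas. They were chosen by gene name: Psmb8, Psmb9 and Psmb10 (catalytic subunits), Psme1 and Psme2 (the PA28 activator), Tap1 and Tap2 (the peptide transporter), Tapbp (tapasin), B2m (the class I light chain) and Nlrc5 (a transcriptional activator of class I genes). All 10 were among the 21434 genes of the table, and all 10 passed the filter on low counts that kept 12820 genes for testing. The knockout group (Bach2KO) was 4 mice homozygous for a whole-body, constitutive deletion in Bach2 on the C57BL/6N-Bach2tm1b(EUCOMM)Wtsi/leg line, and the control group (Bach2WT) was 4 wild-type mice of that line. Every mouse was 18 weeks old and untreated, with 1 library per mouse, and mice 1 and 2 of a group were female and mice 3 and 4 male. Since the deletion was present in every tissue, and the libraries were made from whole pancreas, the data do not tell in which cells a transcript was made.

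Cells cut their proteins into peptides with the proteasome, pump the peptides into the endoplasmic reticulum with the TAP transporter and load them there, with the help of tapasin, onto MHC class I molecules made of a heavy chain and beta-2 microglobulin. In cells of the immune system, and in other cells under interferon, the constitutive catalytic subunits Psmb5, Psmb6 and Psmb7 are replaced by Psmb8, Psmb9 and Psmb10, which gives the immunoproteasome. Acinar cells, which make the digestive enzymes, form most of the pancreas. BACH2 is a transcriptional repressor of lymphocytes that binds Maf recognition elements, which resemble AP-1 sites, together with small Maf proteins.

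The libraries held between 72299745 and 172029360 counts on genes. Of these, 33 digestive enzyme genes took 85.1% to 87.2% in Bach2KO and 86.6% to 88.6% in Bach2WT libraries. The level of a gene is given as CPM, its counts scaled to a common library size after TMM correction, which allows for the few genes that take most of the counts. Bach2 itself had 3 to 16 counts in Bach2KO and 4 to 31 in Bach2WT libraries and was too low to be tested, so it could not serve to check the genotype labels. Bach2KO mouse 3 stood apart on the first principal component of all genes, at 101.8 against -34.8 to 7.2 in the other libraries, and results are given without it where that moved them. In bulk tissue, fewer cells of a type and less RNA per cell cannot be told apart.

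The promoters of 8 of the 10 genes had an entry in RefSeq (GRCm38.p6), here the 250 bases before the transcription start. Those of B2m, Tap1 and Psmb8 are shown because they belong to 3 of the genes with no overlap between the genotypes in CPM, and because they hold each kind of motif found. Capitals mark matches, on either strand, to an interferon regulatory factor element (a pair of GAAA with any 2 bases between them), TTCNNNGAA (a gamma-interferon activation site, called GAS), ATTGG (a Y box) and TGACG (the core of an X2 box). The X2 and Y boxes are elements of class I promoters at which NLRC5 is known to act.
B2m (chr2:122147437-122147686, plus strand): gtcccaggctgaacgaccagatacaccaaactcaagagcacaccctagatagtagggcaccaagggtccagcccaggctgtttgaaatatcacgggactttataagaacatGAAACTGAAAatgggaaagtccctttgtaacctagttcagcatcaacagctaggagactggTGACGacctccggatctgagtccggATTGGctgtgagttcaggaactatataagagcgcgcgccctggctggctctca
Tap1 (chr17:34187306-34187555, plus strand): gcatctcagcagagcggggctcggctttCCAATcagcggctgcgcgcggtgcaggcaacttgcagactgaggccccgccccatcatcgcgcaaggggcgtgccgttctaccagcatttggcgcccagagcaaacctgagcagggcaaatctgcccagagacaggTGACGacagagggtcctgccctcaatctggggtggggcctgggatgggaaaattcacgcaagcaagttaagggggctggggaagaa
Psmb8 (chr17:34197945-34198194, plus strand): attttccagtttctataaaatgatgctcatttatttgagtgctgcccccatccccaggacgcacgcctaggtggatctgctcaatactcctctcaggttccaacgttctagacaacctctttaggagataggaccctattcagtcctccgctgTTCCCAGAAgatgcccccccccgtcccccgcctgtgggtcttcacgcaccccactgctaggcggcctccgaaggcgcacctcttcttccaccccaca
In B2m, the interferon regulatory factor element lay 129 bases before the start, the X2 core 73 and the Y box 48. The Tap1 stretch is also most of the Psmb9 promoter read from the other strand, since the 2 genes lie head to head, and its Y box and X2 core are the ones found for Psmb9. The matches in these 3 windows did not overlap each other. Of 32851 RefSeq promoters of that length, 3.0% held the interferon regulatory factor element, 7.0% the GAS, 33.8% the Y box and 17.8% the X2 core, against 1, 1, 4 and 4 of the 8 genes (Psme2 has 2 entries and was counted once). The core of a Maf recognition element, TGACTCA, was in no window of the 8 genes and in 4.5% of all promoters. These are matches of letters in short windows, with nothing measured on the binding of any factor.

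Of the 10 genes, 9 had a higher fitted level in Bach2KO than in Bach2WT pancreas, with a median log2 fold change of 0.94 against 0.05 over all genes tested. The log2 fold change was 0.75 or above for both parts of the transporter, tapasin, the light chain, Nlrc5, Psmb8 and Psmb9, and 0.15 or below for Psmb10 and the PA28 activator. None of the 10 passed the test across all genes (edgeR quasi-likelihood test, Benjamini-Hochberg adjusted p under 0.05), and neither did nearly any other gene, since 1 of 12820 did (0.0078%). With DESeq2 on the same counts, Tap1 (adjusted p = 0.011) and B2m (adjusted p = 0.013) passed, among 80 of 14700 genes with an adjusted p (over all alternatives, adjusted p ran from 0.011 to 0.674 for Tap1 and from 0.010 to 0.708 for B2m). At an unadjusted p under 0.05, 7 of the 10 were higher in Bach2KO and none lower, where 3.9% of all genes tested were higher. For 4 of them (Psmb8, Tap1, Tapbp and B2m), every Bach2KO library lay above every Bach2WT library, as it did for 2.57% of all genes. This held for Tap1 and Tapbp under every scaling tried, but Psmb8 overlapped between the genotypes with RLE factors, with library sizes without the digestive enzymes, with the length correction, with DESeq2 and without Bach2KO mouse 3, and B2m overlapped with the GC correction. Without Bach2KO mouse 3, the median log2 fold change was 0.74, and 4 genes (Psmb9, Tap1, Tapbp and B2m) were higher at an unadjusted p under 0.05, as were 471 of the 13701 genes then tested (3.44%). Psmb10 (-0.57) was then lower at that level, as were 633 genes (4.62%).

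**Figure D1:**
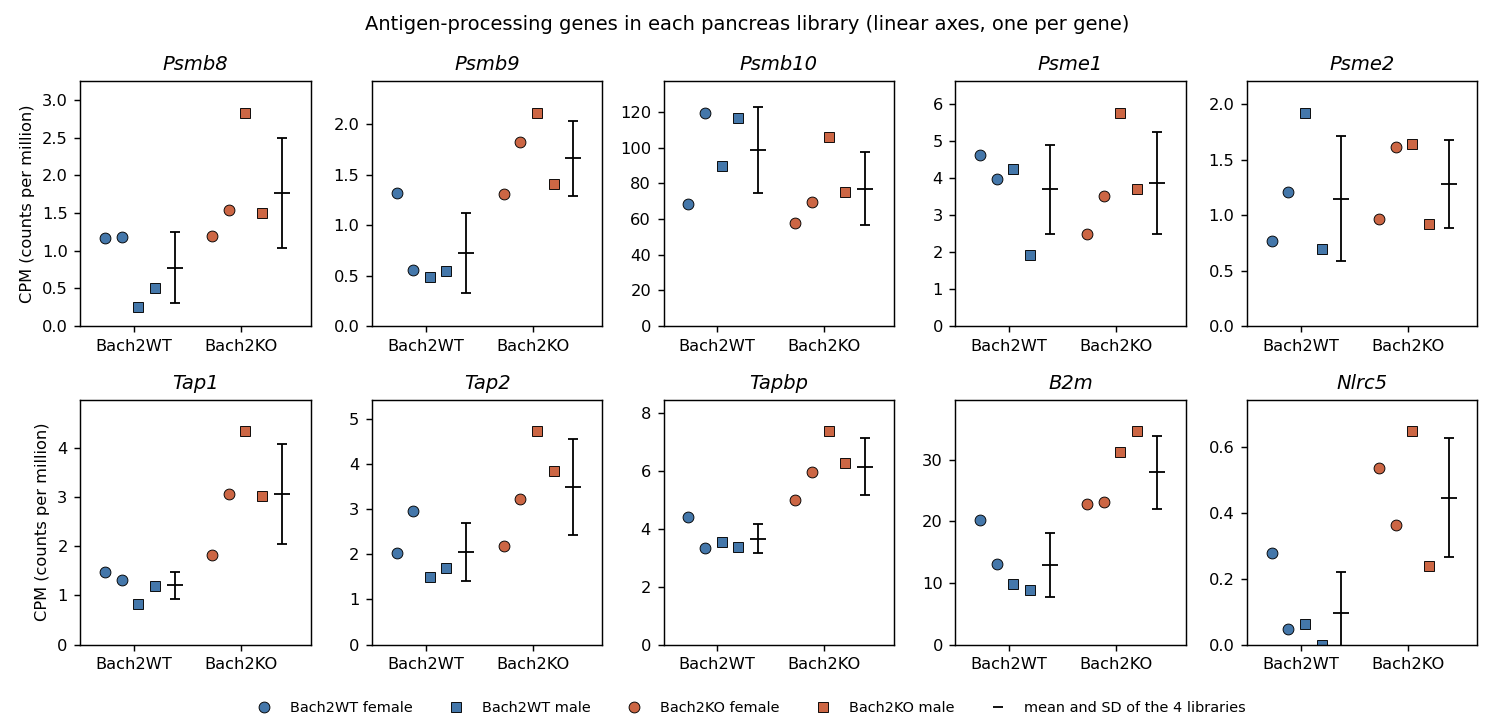
CPM of each of the 10 genes (vertical axes, linear and starting at 0) in the 4 Bach2WT and 4 Bach2KO libraries, with circles for females, squares for males, and the mean ± SD of each group beside them (the lower bar of Nlrc5 in Bach2WT is cut at 0). On this scale the groups do not overlap for Psmb8, Tap1, Tapbp and B2m (Psmb8 overlapped under other scalings and B2m with the GC correction), whereas Psmb10, Psme1 and Psme2 overlap between the genotypes.

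B2m (ENSMUSG00000060802, chromosome 2, 121978167 to 121983564 on the plus strand of GRCm39), the light chain that every classical class I molecule needs to reach the cell surface, was the most abundant of the 7 genes with an unadjusted p under 0.05. Its CPM was 22.8, 23.1, 31.2 and 34.6 in Bach2KO mice 1 to 4 and 20.3, 13.0, 9.78 and 8.78 in Bach2WT mice 1 to 4. The lowest knockout library stood 1.12 times above the highest wild-type library, and in both genotypes the 2 males were farther from the other genotype than the 2 females. The log2 fold change was 1.11 ± 0.25 (SE), a fold of 2.15, with an unadjusted p of 0.000713 and an adjusted p of 0.351 (edgeR).

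The TAP transporter is made of 2 proteins in equal parts. Tap1 (chromosome 17, 34406527 to 34416199, plus strand) had a CPM of 1.83, 3.08, 4.35 and 3.04 in Bach2KO and 1.48, 1.33, 0.835 and 1.20 in Bach2WT mice 1 to 4. No knockout library reached down into the wild-type range, and the log2 fold change of 1.34 ± 0.29 (SE; adjusted p = 0.340 in edgeR) was the 17th by unadjusted p of all genes tested. Tap2 (chromosome 17, 34422501 to 34435295, plus strand), its partner in the channel, was at 2.19, 3.21, 4.72 and 3.85 CPM in Bach2KO and at 2.02, 2.96, 1.504 and 1.70 CPM in Bach2WT mice. Here the knockout female 1 lay below the wild-type female 2, and the log2 fold change was 0.77 ± 0.28 (SE; adjusted p = 0.602 in edgeR). Per length of gene, the Tap1 to Tap2 ratio of FPKM values was 0.545 to 0.662 in Bach2KO and 0.310 to 0.505 in Bach2WT libraries, a ratio that was picked after the values were seen and is given without a test.

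Tapbp (chromosome 17, 34134873 to 34148266, plus strand) encodes tapasin, which holds empty class I molecules beside the transporter. It was at 5.01, 5.95, 7.37 and 6.29 CPM in Bach2KO and at 4.42, 3.34, 3.53 and 3.38 CPM in Bach2WT mice 1 to 4. The wild-type libraries lay close together and all below the knockout libraries, with a log2 fold change of 0.75 ± 0.18 (SE; adjusted p = 0.360 in edgeR), the smallest standard error of the 10 genes. The annotation places Zbtb22 within Tapbp on the same strand over 3422 bases, so that some reads could belong to either gene, and Zbtb22 itself had a log2 fold change of -0.18 ± 0.23 (SE).

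Nlrc5 (chromosome 8, 95160984 to 95253900, plus strand), the activator of class I transcription, was the least abundant of the 10. It had 87, 30, 49 and 46 counts in Bach2KO and 25, 6, 9 and 0 counts in Bach2WT mice 1 to 4, and the count of 0 allows up to 3 counts at this depth. As CPM these were 0.537, 0.362, 0.647 and 0.238 against 0.278, 0.0457, 0.0627 and 0. Of the 4 knockout libraries, 3 lay above all wild-type libraries, and wild-type female 1 was far above the other wild-type mice. The log2 fold change of 2.196 was the highest of the 10, and so was its standard error of 0.89 (adjusted p = 0.636 in edgeR). Its size depended on single wild-type libraries, at 3.48 without Bach2WT mouse 1 and 1.82 without Bach2WT mouse 4.

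Psmb8 (chromosome 17, 34416695 to 34420428, plus strand), the chymotrypsin-like subunit of the immunoproteasome, was at 1.19, 1.53, 2.83 and 1.497 CPM in Bach2KO and at 1.17, 1.18, 0.251 and 0.504 CPM in Bach2WT mice 1 to 4. In CPM the lowest knockout library was 1.01 times the highest wild-type library, and in FPKM the groups overlapped (lowest knockout 0.335, highest wild-type 0.344), so that the females were nearly alike and the males stood apart. Its log2 fold change was 1.18 ± 0.46 (SE; adjusted p = 0.627 in edgeR), and 0.84 without Bach2KO mouse 3, the highest of the 8 libraries.

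Psmb9 (chromosome 17, 34400961 to 34406738, minus strand), the subunit in the place of Psmb6, was at 1.31, 1.82, 2.11 and 1.41 CPM in Bach2KO and at 1.32, 0.556, 0.487 and 0.547 CPM in Bach2WT mice. Only 1 wild-type library, female 1, sat at the level of the lowest knockout library, and the other 3 were close to each other well below. The log2 fold change was 1.19 ± 0.36 (SE; adjusted p = 0.529 in edgeR). Psmb9 and Tap1 overlap by 212 bases on opposite strands, and Psmb8 starts 495 bases past Tap1, so reads of this stretch could be assigned to more than 1 of these genes if strand was not used in the counting.

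Psmb10 (chromosome 8, 106662367 to 106665076, minus strand), the third inducible subunit, was at 57.6, 69.3, 105.8 and 74.9 CPM in Bach2KO and at 68.1, 119.4, 89.9 and 116.6 CPM in Bach2WT mice 1 to 4. The ranges overlapped, and the log2 fold change of -0.36 ± 0.22 (SE; adjusted p = 0.780 in edgeR) had an interval of 2 standard errors from -0.80 to 0.08. Its level was far above that of its partners, and it lies 1872 bases from Ctrl, an acinar protease with 2361066 to 7894866 counts per library, which follows it on the same strand. The counts of Psmb10 came to 0.160% to 0.309% of those of Ctrl. Ctrl was at 26760 to 34287 CPM in Bach2KO and 42529 to 54967 CPM in Bach2WT libraries, a log2 fold change of -0.66 ± 0.16 (SE; adjusted p = 0.352 in edgeR), and the part of Ctrl reads in the Psmb10 counts was not tested.

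The PA28 activator, a ring that opens the proteasome and is induced by interferon in many cells, overlapped between the genotypes. Psme1 (chromosome 14, 55815580 to 55818986, plus strand) was at 2.49, 3.502, 5.75 and 3.70 CPM in Bach2KO and at 4.61, 3.97, 4.24 and 1.91 CPM in Bach2WT mice. Its log2 fold change was 0.06 ± 0.30 (SE; adjusted p = 0.982 in edgeR), with 2 standard errors reaching from -0.53 to 0.65. Psme2 (chromosome 14, 55824898 to 55828570, minus strand) was at 0.964, 1.62, 1.64 and 0.917 CPM in Bach2KO and at 0.766, 1.21, 1.92 and 0.691 CPM in Bach2WT mice. Its log2 fold change was 0.15 ± 0.37 (SE; adjusted p = 0.964 in edgeR), with 2 standard errors reaching from -0.59 to 0.88. Differences anywhere within these intervals remain compatible with the values of these mice. Both signs depended on single libraries: Psme1 was at -0.21 without Bach2KO mouse 3 and -0.15 without Bach2WT mouse 4, and Psme2 at -0.02 without Bach2KO mouse 3, -0.0068 without Bach2WT mouse 1 and -0.03 without Bach2WT mouse 4.

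**Figure D2:**
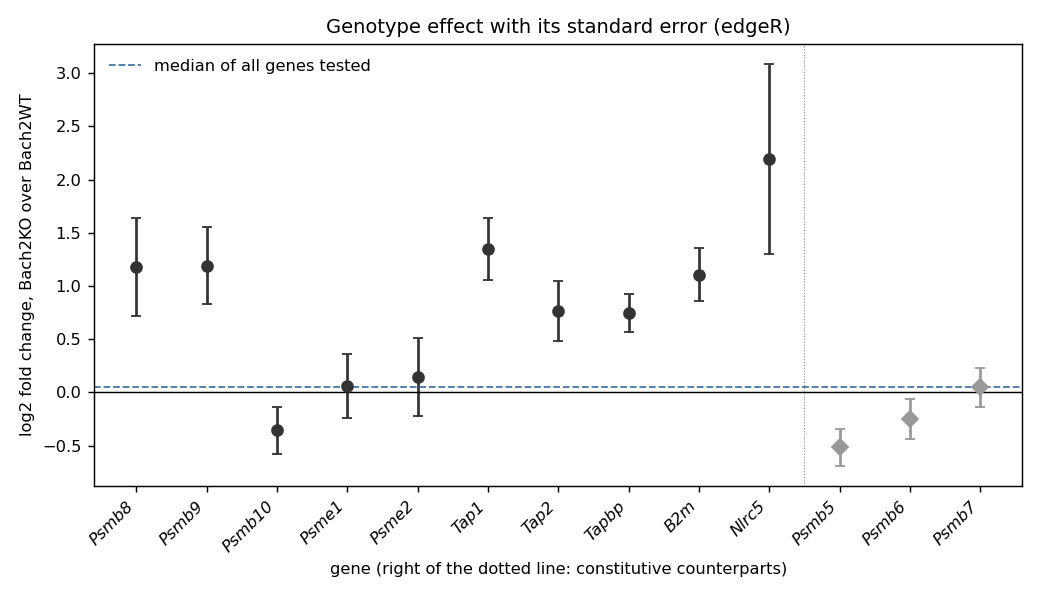
Log2 fold change of Bach2KO over Bach2WT (vertical axis) with its standard error for the 10 genes and, right of the dotted line, the 3 constitutive subunits, with the median of all genes tested as a dashed line. Of the 10, 7 lie between 0.75 and 2.196, Psme1 and Psme2 lie near 0, and Psmb10 and Psmb5 lie below 0.

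Each inducible subunit takes the place of 1 constitutive subunit. The 2 were compared within a library as a ratio of FPKM values (counts per length of gene), which does not depend on library scaling. The percentages depend on the deposited lengths, which were 3381 bases for Psmb8, 3660 for Psmb9 and 1705 for Psmb10. They were 899 for Psmb5, 1872 for Psmb6 and 3421 for Psmb7. The differences between genotypes do not depend on the lengths. Psmb8 came to 2.55%, 2.86%, 5.23% and 2.59% of Psmb5 in Bach2KO and to 2.00%, 1.25%, 0.363% and 0.618% in Bach2WT mice 1 to 4. The ratio was higher in every knockout mouse than in any wild-type mouse, with a log2 difference of 1.87 (two-sided exact permutation test, n = 4 against 4, p = 0.0286, the smallest this design allows, and 0.0429 adjusted over 3 ratios). Psmb9 came to 4.24%, 4.64%, 4.16% and 3.67% of Psmb6 in Bach2KO and to 3.40%, 1.08%, 1.14% and 0.966% in Bach2WT mice. The knockout mice were again all above the wild-type mice, with a log2 difference of 1.55 (two-sided exact permutation test, n = 4 against 4, p = 0.0286, adjusted 0.0429). Leaving out any 1 knockout mouse gave p = 0.0571 for both ratios (exact permutation test), with log2 differences of 1.62 to 1.97 for the first and 1.5 to 1.61 for the second. Psmb10 came to 2728%, 2865%, 4240% and 2438% of Psmb7 in Bach2KO and to 3363%, 4078%, 3851% and 4682% in Bach2WT mice, a log2 difference of -0.40 (exact permutation test, p = 0.114, adjusted 0.114). Without Bach2KO mouse 3, this last difference was -0.57 (exact permutation test, p = 0.0286), lower in the 3 remaining knockout mice than in the wild-type mice. The part of Ctrl reads in the Psmb10 counts of this ratio was not tested.

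**Figure D3:**
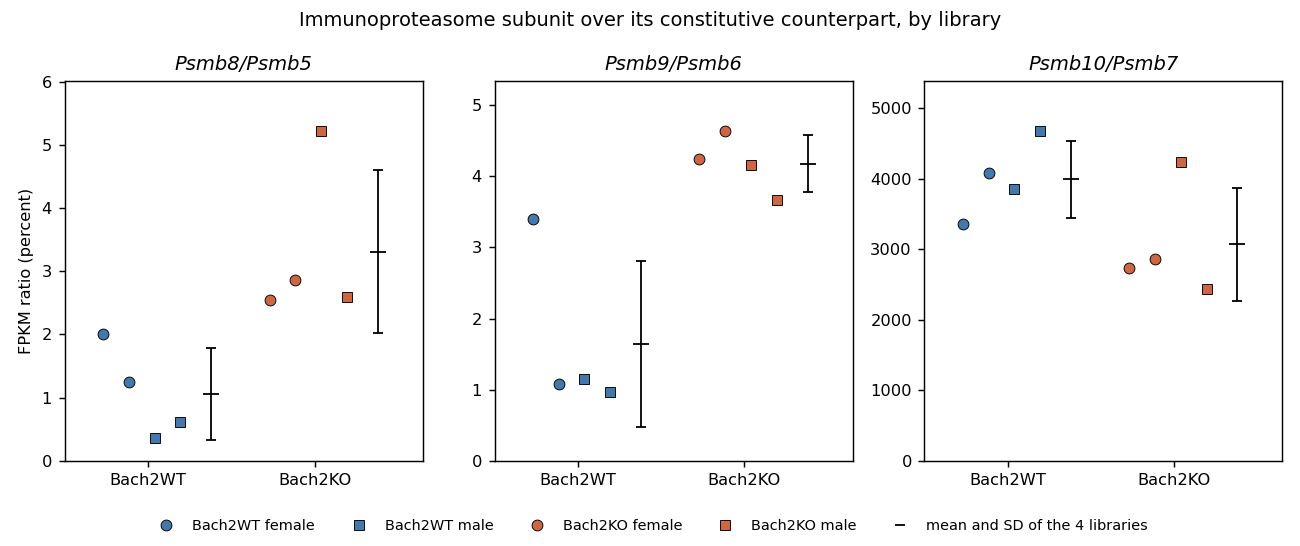
Ratio of FPKM values (percent, linear axes starting at 0) of Psmb8 to Psmb5, Psmb9 to Psmb6 and Psmb10 to Psmb7 in each library, with circles for females, squares for males, and the mean ± SD of 4 mice. All Bach2KO mice lie above all Bach2WT mice for the first 2 ratios, and Bach2WT mouse 1 lies at 3.40% for Psmb9 to Psmb6 while the other 3 lie between 0.966% and 1.14%.

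Psmb5, the lower term of the first ratio, was at 12.4 to 15.3 CPM in Bach2KO and at 15.5 to 25.1 CPM in Bach2WT libraries, with all knockout libraries below all wild-type libraries, as in 1.92% of all genes tested, and a log2 fold change of -0.52 ± 0.17 (SE; unadjusted p = 0.0100, adjusted p = 0.541 in edgeR). Psmb6, at -0.25 ± 0.18 (SE), and Psmb7, at 0.05 ± 0.18 (SE), overlapped between the genotypes. Without Bach2KO mouse 3, Psmb5 and Psmb6 were both lower at an unadjusted p under 0.05, as were 4.62% of the genes then tested. FPKM divides by the deposited gene length, such as 860 bases for B2m, 1705 for Psmb10, 3381 for Psmb8 and 8493 for Nlrc5. An order of genes by FPKM thus depends on these lengths. In mean FPKM, wild-type pancreas held 57.0 ± 14.2 (SD, n = 4) of Psmb10 and 14.8 ± 5.8 of B2m. The part of Ctrl reads in the Psmb10 value was not tested. Next came 1.64 ± 0.53 of Psme1, 0.996 ± 0.132 of Tapbp, 0.642 ± 0.319 of Psme2 and 0.533 ± 0.166 of Tap2. The lowest were 0.226 ± 0.136 of Psmb8, 0.217 ± 0.048 of Tap1, 0.196 ± 0.105 of Psmb9 and 0.0111 ± 0.0142 of Nlrc5. In this order, Psme1 to Tap2 overlapped each with the next, and so did Psmb8, Tap1 and Psmb9, while Psmb10, B2m and Nlrc5 stood clear of their neighbours. In knockout pancreas, Tap2 (0.898 ± 0.286) passed Psme2 (0.707 ± 0.224) and Tap1 (0.546 ± 0.189) passed Psmb8 (0.507 ± 0.216), in both cases within their spread.

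In the rest of the proteasome, median values were near 0. Of 11 other 20S core subunits, 4 had a higher and 7 a lower fitted level in Bach2KO, with a median log2 fold change of -0.03, and at an unadjusted p under 0.05 none was higher and 1 lower (Psmb3, -0.48 ± 0.22 SE), where 3.56% of all genes were lower. Of 8 other activators, inhibitors and assembly factors, none was past that level, with a median of -0.01 and the smallest p for the assembly chaperone Psmg4 (0.64 ± 0.39 SE). The same held for 7 other genes of peptide loading and folding in the endoplasmic reticulum, with a median of 0.03. Tapbpl, a relative of tapasin, had the smallest p of these (0.56 ± 0.31 SE). Among 5 cytosolic peptidases, which destroy or trim peptides, the median was -0.16 and none was past that level, with the smallest p for Thop1 (-0.37 ± 0.19 SE).

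The partners that B2m binds showed the same direction as B2m. Of 13 class I heavy chain genes in the table, 10 were tested and 9 had a higher fitted level in Bach2KO. The median log2 fold change was 0.73, and 0.51 over the 11 tested without Bach2KO mouse 3. At an unadjusted p under 0.05, 6 of the 10 were higher, beside 3.9% of all genes tested. H2-T23, a nonclassical class I molecule that is a ligand of natural killer cell receptors, was at 4.09 to 5.57 CPM in Bach2KO and 1.87 to 3.16 CPM in Bach2WT libraries (0.93 ± 0.21 SE; adjusted p = 0.351 in edgeR). H2-Q4, another nonclassical gene, was at 2.55 to 4.16 CPM against 0.223 to 1.59 CPM (1.88 ± 0.44 SE; adjusted p = 0.352 in edgeR). The classical H2-K1, which presents peptides to CD8+ T cells, was far more abundant, at 49.3 to 71.5 CPM against 34.0 to 47.0 CPM (0.52 ± 0.17 SE; adjusted p = 0.539 in edgeR). These 3, named for the smallest p of the list, did not overlap between the genotypes. Of the 10 tested, 4 had every knockout library above every wild-type library, beside 2.57% of all genes. Class I genes are close copies of each other, and their counts are uncertain where reads are shared.

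Genes of interferon signalling and of the complex that NLRC5 joins on class I promoters were also read. Of the 13 tested, 8 had a higher and 5 a lower fitted level in Bach2KO, with a median log2 fold change of 0.18. At an unadjusted p under 0.05, 2 were higher and none lower, beside 3.9% of all genes higher. Irf1, an interferon-induced factor that binds interferon regulatory factor elements, was at 0.933 to 2.28 CPM in Bach2KO and 0.518 to 0.912 CPM in Bach2WT libraries (1.00 ± 0.34 SE; adjusted p = 0.552 in edgeR), with no overlap. Rfx5, a subunit of the X box complex, was low and overlapped between the genotypes, with a log2 fold change of 1.67 ± 0.66 (SE; adjusted p = 0.627 in edgeR). Without Bach2KO mouse 3, 10 of the 13 had a higher fitted level and 1 was higher at that unadjusted p. MHC class II genes, which present peptides to CD4+ T cells and are loaded by another pathway, were also among the genes with a higher level. All 6 tested were higher at an unadjusted p under 0.05, beside 3.9% of all genes, with a median log2 fold change of 1.23. Without Bach2KO mouse 3, the median was 0.89 over the 7 tested. Of the 6, 1 (H2-DMb1) had every knockout library above every wild-type library, beside 2.57% of all genes. H2-DMb1 and H2-DMa, the chains of the class II peptide exchanger, were at 1.64 ± 0.42 and 1.68 ± 0.51 (SE), and H2-Ab1, a class II chain, at 1.25 ± 0.38 (SE), all with adjusted p of 0.387 or above (edgeR). Without Bach2KO mouse 3, the counts higher at an unadjusted p under 0.05 were 5 of 11 for the heavy chains and 4 of 7 for class II, beside 3.44% of all genes, and 1 heavy chain (H2-T22, named after its value was seen) was lower, beside 4.62%.

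**Figure D4:**
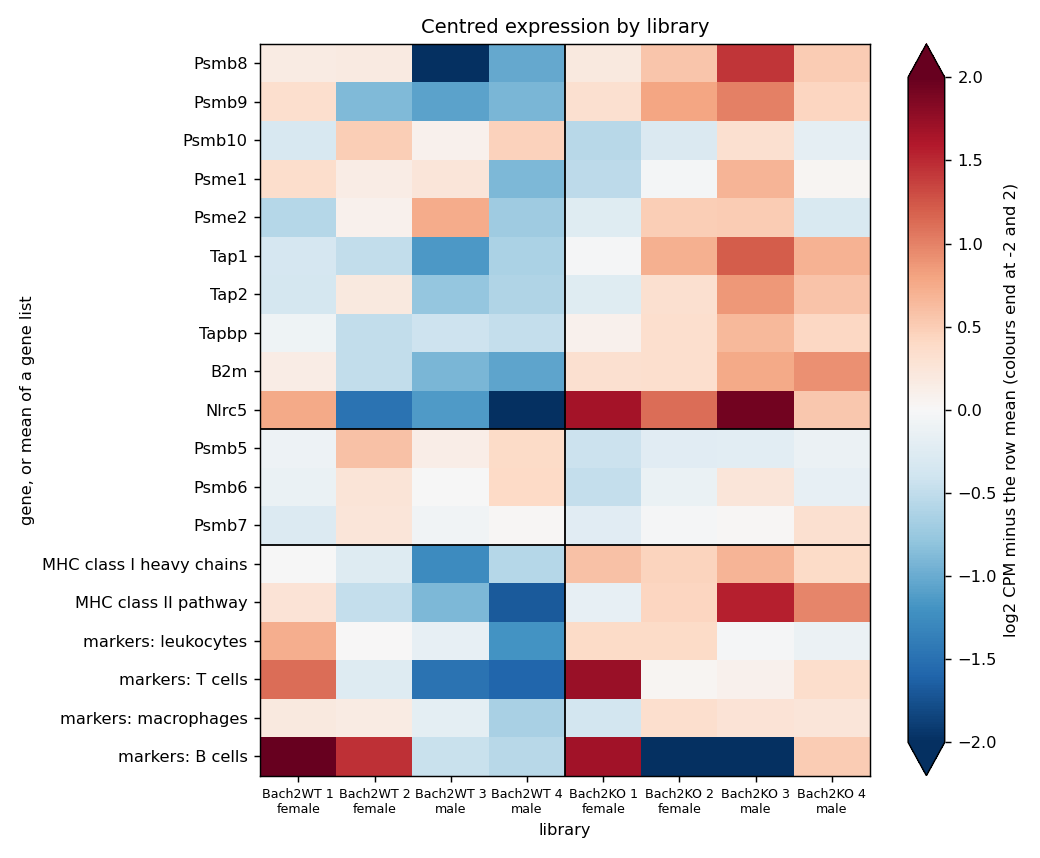
Log2 CPM minus the mean of each row (colour, ending at -2 and 2) in the 8 libraries (columns) for the 10 genes, the 3 constitutive subunits, and the means of the class I heavy chain, class II and cell type marker lists (rows). Tap1, Tapbp, B2m and the class I heavy chains are higher in every knockout than in every wild-type library, while the leukocyte, T cell and B cell markers are highest in Bach2WT mouse 1 or Bach2KO mouse 1.

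The summed markers of other cell types that could carry these transcripts overlapped between the genotypes. For leukocytes and T cells, they overlapped only through Bach2WT mouse 1. Every Bach2KO sum of these 2 lists lay above the sums of the other wild-type mice. The 10 leukocyte markers summed to 17.0, 21.1, 18.8 and 17.9 CPM in Bach2KO and to 23.8, 15.8, 12.3 and 9.36 CPM in Bach2WT mice 1 to 4 (two-sided exact permutation test, p = 0.343, and 0.520 adjusted over 14 marker lists). In wild-type mice this sum and B2m were both highest in mouse 1 and lowest in mouse 4, whereas in knockout mice the sum was highest in mouse 2 and B2m in mouse 4. Of the single leukocyte markers, 1 of 10 (Cd52) was higher at an unadjusted p under 0.05, beside 3.9% of all genes tested. Without Bach2WT mouse 1 it was 3 of 10 (5.55% of all genes), and without Bach2KO mouse 3 it was 0 of 10 (3.44%). Macrophage markers summed to 19.1 to 30.8 CPM in Bach2KO and 15.0 to 30.4 CPM in Bach2WT. Of these 9 markers, 5 had a higher and 4 a lower fitted level in Bach2KO. C1qb was higher and none lower at an unadjusted p under 0.05. C1qa, at -0.64 ± 0.30 (SE), went the other way and was lower at that p without Bach2KO mouse 3. T cell markers summed to 3.34 CPM in Bach2KO mouse 1 and to 0.954 to 1.20 CPM in the other knockout mice. They summed to 1.94 CPM in Bach2WT mouse 1 and to 0.278 to 0.709 CPM in the other wild-type mice. Of these 10 markers, 8 were at 0 counts in at least 1 library. All 6 that could be tested had a higher fitted level in Bach2KO (median log2 fold change 0.93), none with an unadjusted p under 0.05. So had all 8 tested without Bach2KO mouse 3 (median 1.19), again none at that p. Without Bach2WT mouse 1, all 7 tested were higher (median 1.83), 1 of them at that p, beside 5.55% of all genes. B cell markers summed to 0.0264 to 1.79 CPM and 0.360 to 3.92 CPM, with 5 of 6 at 0 counts in at least 1 library. The part of these cells in the result was not tested.

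The sums of the remaining marker lists overlapped between the genotypes as well. In CPM, they were 36.4 to 51.8 in Bach2KO and 44.0 to 64.5 in Bach2WT libraries for plasma cells (of which Derl3 alone gave 36.0 to 51.0 and 39.2 to 63.6), 0.988 to 1.66 and 0.822 to 1.10 for dendritic cells, and 0.0724 to 0.502 and 0 to 0.200 for natural killer cells. The dendritic cell sums overlapped only through Bach2WT mouse 1, at 1.10, with the other wild-type mice at 0.822 to 0.937. For lymph node the sums were 10.96 in Bach2KO mouse 1 and 0.930 to 1.49 in the other knockout mice. They were 4.37 in Bach2WT mouse 1 and 0.403 to 1.24 in the other wild-type mice. For endothelial cells the sums were 12.0 to 24.2 and 8.65 to 13.6, and for duct cells 14.7 to 20.6 and 15.1 to 19.0. For islet cells they were 227 to 2021 and 184 to 2317, for fibroblasts 24.8 to 39.9 and 20.04 to 49.97, and for adipocytes 0 to 7.77 and 0.590 to 14.3. Single markers of these lists were past an unadjusted p of 0.05 all the same, beside 3.9% of all genes tested higher and 3.56% lower. Cdh5, an endothelial cadherin, was at 2.32 to 7.25 CPM in Bach2KO and 1.44 to 2.19 CPM in Bach2WT libraries (log2 fold change 1.07 ± 0.33 SE), and Krt7, a duct keratin, at 2.13 to 2.69 against 1.38 to 1.79 CPM (0.57 ± 0.22 SE), both with no overlap. Ccl21a, a lymph node chemokine (2.125 ± 0.64 SE), and Gcg, the glucagon gene of islets (1.33 ± 0.59 SE), were higher with overlap, and Plin1, an adipocyte gene, was lower, at 0 to 0.0865 against 0.202 to 1.12 CPM. Ccl21a had 750 counts in Bach2KO mouse 1 and 73 to 157 in the other knockout mice, and Cxcl13 of the same list was at -1.24 ± 1.17 (SE). Of the markers tested, 2 of 7 for islets, 2 of 4 for ducts and 1 of 5 for endothelium had a lower fitted level. Without Bach2KO mouse 3, no duct or islet marker was higher at that p, and the islet median went from 0.30 to -0.23. Acinar markers summed to 504230 to 572840 CPM in Bach2KO and 560640 to 755924 CPM in Bach2WT libraries. Of the 12, 5 were lower in Bach2KO at an unadjusted p under 0.05, beside 3.56% of all genes tested. Adjusted p over the 14 sums was 0.520 or above (two-sided exact permutation tests). Among the 33 digestive enzymes, 11 were lower and 1 higher at an unadjusted p under 0.05 (the median log2 fold change was -0.33), beside 3.56% and 3.9% of all genes. These values are after TMM correction, and the share of all counts on the enzymes overlapped between the genotypes. The part of acinar RNA in the levels of the 10 genes was not tested.

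The fitted log2 fold change was larger in males than in females for 9 of the 10 genes, all but Psme2. The median log2 fold change was 0.42 in females and 1.59 in males, with 0.05 and 0.01 over all genes. B2m had a mean of 22.98 CPM in knockout and 16.6 CPM in wild-type females, and of 32.9 CPM against 9.28 CPM in males. In males the knockout mean was thus higher, and the wild-type mean lower, than in females. Psmb8 was at 1.36 CPM against 1.17 CPM in females and at 2.16 CPM against 0.377 CPM in males. Tap2 was at 2.70 CPM against 2.49 CPM in females and at 4.28 CPM against 1.60 CPM in males. These 3 genes had an unadjusted p under 0.05 for the interaction of genotype and sex (0.0021 for B2m, 0.0047 for Psmb8 and 0.0148 for Tap2, edgeR), as did 6.14% of all genes, but their adjusted p was 0.794 and no gene of 12820 passed (0%). With DESeq2, 18 genes passed, and none of the 10 was among them. A difference between the sexes was thus not shown for these genes.

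**Figure D5:**
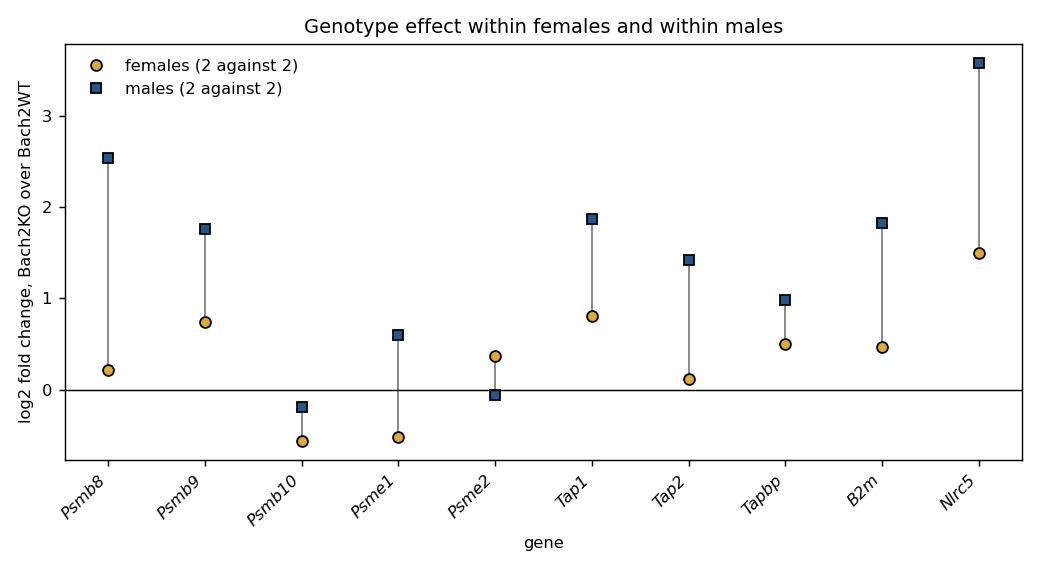
Log2 fold change of Bach2KO over Bach2WT (vertical axis) for each of the 10 genes, fitted within females (circles, 2 against 2 mice) and within males (squares, 2 against 2 mice). The male value lies above the female value for all genes but Psme2, and the gap is widest for Psmb8 and Nlrc5.

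The mean of the centred log2 CPM values of the 10 genes was 0.10, 0.43, 0.93 and 0.36 in Bach2KO and 0.01, -0.28, -0.64 and -0.92 in Bach2WT mice 1 to 4. Each of the 10 is part of this mean, so their own distances to it are not set against other genes. Of all other genes tested, the 8 with the smallest root mean square distance to it were H2-T23 (0.13), Mief2 (0.17), Maf (0.18), Gm6969 (0.18), Tcof1 (0.19), Naa20 (0.21), St3gal2 (0.21) and Arhgap18 (0.22), against a median of 0.73 over single genes. H2-T23, the closest, is also a class I gene, and the others are not known members of this pathway.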

How the data were processed

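RNA-seq libraries of pancreas from 4 Bach2KO and 4 Bach2WT mice were analysed, 1 per mouse and grouped by the labels. After isolation of total RNA, mRNA was sequenced in paired-end mode. A single table with counts per gene, not normalized, was deposited. It also holds a signal, which the authors made by dividing each count by 1 size factor per library, and FPKM values, for which the authors further divided this signal by gene length and by 1 constant. The deposited log2 fold changes and p-values (raw and adjusted) hold the authors' comparison and, like the deposited group means, were not used. The deposited gene lengths were used for the length correction. The submitters' processing notes name fastp, HISAT2 2.2.1, featureCounts 2.0.6 and the build mm39. The use of strand and the handling of shared reads are not given in the sources used here.

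The subunit ratios, the Tap1 to Tap2 ratio and the FPKM levels used the deposited FPKM values, and everything else on expression was computed from the counts. Even counts were in excess (54.7% to 58.7% of counts above 10), so that a pair may have been counted as 2. Counting error is thus a lower limit. Genotypes were compared over all genes with edgeR 4.0.16 (quasi-likelihood test, TMM factors, filterByExpr, no covariate) and the Benjamini-Hochberg method, with 0.05 as the threshold. P-values measure the spread between 4 mice a group. For ratios and marker sums, exact permutation tests (two-sided) were used. A prior count of 2 went into log2 CPM. DESeq2 1.42.0, other scalings, filters and covariates, corrections for gene length and GC content (known for 97.2% of genes), and leaving out each mouse were alternatives. Counts over gene lists without Bach2KO mouse 3 or Bach2WT mouse 1 were added after seeing the data. RefSeq promoters (GRCm38.p6) were searched for motifs on both strands, and gene coordinates are those of the deposited table (GRCm39).

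The 10 genes and the lists were chosen with earlier results of these data known. Named were the 10 genes, Psmb5, Psmb6 and Psmb7, Bach2, up to 3 genes with the smallest unadjusted p of each further list, and the 8 genes nearest in profile. 1 gene of the interferon list is not reported here and was left out of its counts. Ctrl and Zbtb22 were named as neighbours after the values were seen. Replicate numbers are not stated to pair the mice, and the main tests did not pair them.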

Additional observations from a re-analysis of the deposited data

Results flagged for a closer look

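Of 32 group values checked (the 10 genes, the 3 constitutive subunits and the 3 ratios, in each genotype), 3 held a library that lay apart from the other 3 of its group by Dixon's criterion, where chance would flag about 1 group in 20. Psmb9 was at 1.32 CPM in Bach2WT mouse 1 and at 0.487 to 0.556 CPM in the other wild-type mice. The same library gave the ratio of Psmb9 to Psmb6 of 3.40%, against 0.966% to 1.14%. Without this mouse, the Psmb9 log2 fold change was 1.64 (edgeR, adjusted p = 0.148, and 0.148 to 0.882 over all alternatives) and that of the ratio 1.97 (exact permutation test, p = 0.0286). The ratio of Psmb8 to Psmb5 was 5.23% in Bach2KO mouse 3 and 2.55% to 2.86% in the other knockout mice. Without this mouse, the log2 difference of the ratio was 1.62 (exact permutation test, p = 0.0571), with the 3 remaining knockout mice still above all wild-type mice.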

How the results depend on the processing

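The count of genes called over the whole table was 1 and depended on the fit. It was 0 with at least 10 counts in every library, with sex as a covariate, with library sizes without the digestive enzymes, with the GC correction, with counts divided by 2 and without any 1 mouse (0 to 0). It was 73 (55 higher, 18 lower) with no filter on low counts and 80 (57 higher, 23 lower) with DESeq2. Of the 10 genes, 2 (B2m and Tap1) were called under each of these latter 2 settings and 0 elsewhere. With the replicate number as a block, 0 genes were called. The numbers are not stated to pair the mice. Correlations of deviations were 0.21 between the mice numbered 1 and -0.05 to -0.03 for the other numbers. Between mice of different numbers they were -0.16 to 0.11, so the mice numbered 1 were the most alike. The 10 genes' median was 0.96 with the block. The median log2 fold change of the 10 genes lay between 0.74 and 1.13 over all alternatives. Library sizes without the digestive enzymes moved the median of all genes from 0.05 to 0.18, and the length and GC corrections moved it to -0.06 and -0.07. The number of the 10 genes higher at an unadjusted p under 0.05 was 4 to 7 when 1 mouse was left out. The sign of Psmb8, Psmb9, Psmb10, Tap1, Tap2, Tapbp, B2m and Nlrc5 held under every alternative that could be fitted. Psme1 turned to -0.0029 with the length and -0.0025 with the GC correction, and to as low as -0.21 (highest 0.22) without 1 mouse, and Psme2 ranged from -0.032 to 0.52 without 1 mouse.

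The log2 difference of the ratios lay between 1.45 and 2.27 for Psmb8 to Psmb5, between 1.37 and 1.97 for Psmb9 to Psmb6, and between -0.57 and -0.30 for Psmb10 to Psmb7 when 1 mouse was left out. With a knockout mouse left out, the first 2 had p = 0.0571 (exact permutation test), past the threshold no longer, although the remaining knockout mice all lay above the wild-type mice. Interaction calls were 0 to 6 without 1 mouse and 18 with DESeq2, with none of the 10 genes among them. The causes of these changes were not tested. Nlrc5, with 0 to 87 counts a library, is limited by depth.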
